A study of Homo sapiens with 12 samples.

Results

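The cyclin E and CDK2 axis was described by 8 genes taken by symbol from a table of 58233 genes, and all 8 were found. These are CCNE1 and CCNE2 (cyclins E1 and E2), CDK2 (their kinase partner), CDC25A (a phosphatase that activates the kinase), CKS1B (a small subunit bound by the kinase), and the F-box proteins SKP2, FBXW7 and FBXO5. The rule names the genes and uses no measured value, but they were proposed when earlier results of these data were known. RNA was sequenced from HL-60, a suspension line of human acute myeloid leukaemia cells with a myeloid and wild-type label. Its 12 libraries fall into 4 groups of 3: untreated cells, cells given 100 nM ATRA (all-trans retinoic acid, the ligand of the retinoic acid receptors), cells given 500 nM palbociclib (an inhibitor of CDK4 and CDK6), and cells given both agents at these doses, called the combination. All cells were grown in RPMI with fetal calf serum, and the time point was 3 h. The untreated group carries no vehicle in its labels, and HL-60 is 1 cell line, so the values speak for that line alone.

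Cyclin E binds CDK2 late in G1, and the complex adds phosphates to the retinoblastoma protein, to NPAT, a coactivator of histone genes, and to replication factors, after which cells enter S phase. CDC25A removes the inhibitory phosphates that WEE1 places on CDK2, while p27 (CDKN1B) and p21 (CDKN1A) hold the complex inactive. The SCF ubiquitin ligase is built on the scaffold CUL1 and takes its targets through F-box proteins: SKP2, with CKS1B as its cofactor, takes p27, and FBXW7 takes phosphorylated cyclin E. FBXO5, also called EMI1, inhibits the anaphase-promoting complex. CCNE1, CCNE2, CDC25A and FBXO5 are textbook targets of E2F factors, which the retinoblastoma protein restrains until CDK4 or CDK6 and then CDK2 phosphorylate it.

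The stretches before the start of CCNE1, CDC25A and CKS1B are shown here as examples for the response described below. CCNE1 is the cyclin gene with the most negative fold changes of those tested against untreated cells. CDC25A is a phosphatase gene that was called lower with each treatment, as CCNE1 and SKP2 also were. CKS1B is the subunit gene that was not called in any comparison. Each run is the 250 bases before the annotated start, read 5′ to 3′ on the strand of the gene, from RefSeq promoters on GRCh38.p14. Capitals mark a match to an E2F-type word (TTTGGCGC, TTTCCCGC, TTTGCCGC or TTTCGCGC, on either strand) or to the cell cycle homology region word (TTTGAA, on either strand). The windows are chr19:29811741-29811990 on the plus strand for CCNE1, chr3:48188418-48188667 on the minus strand for CDC25A and chr1:154974431-154974680 on the plus strand for CKS1B.
CCNE1: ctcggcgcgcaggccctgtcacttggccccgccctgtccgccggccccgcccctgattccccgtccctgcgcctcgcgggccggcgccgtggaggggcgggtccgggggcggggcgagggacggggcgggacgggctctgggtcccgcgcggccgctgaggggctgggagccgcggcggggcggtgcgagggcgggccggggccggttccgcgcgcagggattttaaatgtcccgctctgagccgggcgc
CDC25A: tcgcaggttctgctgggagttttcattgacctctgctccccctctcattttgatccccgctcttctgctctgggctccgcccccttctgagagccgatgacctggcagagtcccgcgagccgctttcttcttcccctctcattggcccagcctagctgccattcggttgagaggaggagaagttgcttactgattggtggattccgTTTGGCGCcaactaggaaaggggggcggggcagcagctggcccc
CKS1B: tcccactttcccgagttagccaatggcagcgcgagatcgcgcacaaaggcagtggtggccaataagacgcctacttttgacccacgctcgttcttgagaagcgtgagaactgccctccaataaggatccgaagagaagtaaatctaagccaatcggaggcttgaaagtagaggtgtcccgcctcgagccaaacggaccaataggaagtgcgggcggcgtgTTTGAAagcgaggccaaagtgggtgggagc

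The CDC25A window held 1 E2F-type match, TTTGGCGC, which begins 44 bases before the start, and the CKS1B window held 1 homology region word, which begins 30 bases before it. The CCNE1 window held neither. Over all 35116 windows of this length, 979 (2.788%) held an E2F-type word and 4677 (13.319%) held the homology region word. The table gave 10 windows for 6 of the 8 genes. Among the rest, 1 window of FBXO5 held TTCAAA, the reverse complement of the homology region word, 40 bases before its start, 1 window of FBXW7 held the word 210 bases before its start, and SKP2 held neither. A match of letters is a description and not a binding site, and a window without one says only that these letters are not in it.

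The values are RPKM, read numbers scaled to gene length and library size, and the authors rounded them to whole numbers. Reads per library cannot be taken from such values, so the error given is the SD over the 3 libraries of a group, and a value of 0 lies under the rounding step of 1. The 12 libraries summed to 358455 to 390247 RPKM, with the highest sum in replicate 1 of each treated group. The myeloid genes MPO, ELANE, PRTN3, AZU1, CD33 and SPI1 were each detected in at least 1 library, with ELANE, a defining protease gene of promyelocytes, at 0 to 1 RPKM, and 8 of 8 markers of lymphoid, erythroid, megakaryocytic, stromal and epithelial cells were at 0 in all 12. DHRS3, a retinoic acid target, stood at 0.333 ± 0.577 RPKM (SD, n = 3) untreated and 0.667 ± 0.577 with palbociclib, and at 45.0 ± 4.36 with ATRA and 46.7 ± 4.93 with the combination, high in all 6 libraries labelled with ATRA and in no other. The targets CYP26A1, RARB and TGM2 were listed at 0 in all libraries.

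CCNE1 (ENSG00000105173, protein coding, chr19 29811991 to 29824312, plus strand, GRCh38) was read at 15, 13 and 15 RPKM in the untreated libraries. It stood at 9, 8 and 8 with ATRA, at 5, 5 and 5 with palbociclib and at 5, 4 and 4 with the combination. All treated libraries lay below all untreated ones, and ATRA lay above palbociclib without overlap, while palbociclib and the combination overlapped at 5. How many of all genes tested also separate in this way was not determined, for this gene or those below. The group means were 14.3 ± 1.15 RPKM untreated, 8.33 ± 0.577 with ATRA, 5 ± 0 with palbociclib and 4.33 ± 0.577 with the combination (SD, n = 3 each), or 58.1%, 34.9% and 30.2% of the untreated mean in the treated groups.

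CCNE2 (ENSG00000175305, protein coding, chr8 94879770 to 94896678, minus strand) was the lower of the cyclin genes, at 3 RPKM in each untreated library. It was listed at 1, 1 and 2 with ATRA and at 0 in all 6 libraries that received palbociclib, alone or in the combination. The untreated group overlapped with no treated group, but with 3 libraries against 3 an exact two-sided permutation test cannot go below p = 0.1, which is the value it gave for each treatment. At this level the rounding step is a large part of the value, and the gene did not pass the filter for the test across genes (5 RPKM or more in 3 or more libraries). With a filter at 1 RPKM, limma called it lower with palbociclib (adjusted p = 9.16e-07, where 0.614% of 14003 genes were called lower), with the combination (3.82e-07, 2.87%) and in the combination against ATRA (3.52e-05, 0.0643%), but not with ATRA (0.00666). These calls set groups at 0 in every library against others, with no spread left after rounding in the untreated and palbociclib groups and the combination. CCNE2 passed this filter only through the untreated and ATRA groups, where it is high, so the calls add no support beyond the listed values. In addition, 1629 bases, or 37.0% of its exonic bases, overlap exons of INTS8 on the opposite strand, a gene read at 9 to 10 RPKM in all libraries, and the sources do not say whether the libraries kept the strand.

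CDK2 (ENSG00000123374, protein coding, chr12 55966781 to 55972789, plus strand) was read at 19, 20 and 18 RPKM untreated, at 14, 15 and 14 with ATRA, at 12, 13 and 11 with palbociclib and at 12, 12 and 10 with the combination. Treated and untreated libraries did not overlap, and the ranges of palbociclib (11 to 13) and the combination (10 to 12) did. The means were 19 ± 1, 14.3 ± 0.577, 12 ± 1 and 11.3 ± 1.15 RPKM (SD, n = 3 each). Relative to the untreated mean, the kinase gene therefore kept 75.4%, 63.2% and 59.6% of its level, more than its partner CCNE1 in each treatment.

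CDC25A (ENSG00000164045, protein coding, chr3 48157146 to 48188417, minus strand) was read at 36, 35 and 34 RPKM untreated and at 22, 21 and 22 with ATRA. It stood at 18, 19 and 18 with palbociclib and at 15, 15 and 13 with the combination. No 2 groups overlapped, so the phosphatase gene was the only one of the 8 in which the order untreated, ATRA, palbociclib and combination held for every library. The means were 35 ± 1, 21.7 ± 0.577, 18.3 ± 0.577 and 14.3 ± 1.15 RPKM (SD, n = 3 each), with 41.0% of the untreated mean left in the combination.

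CKS1B (ENSG00000173207, protein coding, chr1 154974653 to 154979251, plus strand) had the highest RPKM of the 8 genes and no group that stood apart. It was read at 96, 98 and 107 RPKM untreated, at 120, 107 and 100 with ATRA, at 113, 100 and 98 with palbociclib and at 116, 109 and 95 with the combination. In the treated groups replicate 1 was the highest each time, in the libraries that also had the highest sum of RPKM, and the part of the library sum in this was not tested. CKS1B has 6 processed copies among the listed genes, the highest of them, CKS1BP3, at 33 to 43 RPKM, so reads that match both the gene and a copy make its level uncertain.

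SKP2 (ENSG00000145604, protein coding, chr5 36151989 to 36196849, plus strand), the F-box gene whose product marks p27 for degradation, was read at 43, 46 and 46 RPKM untreated. It stood at 29, 32 and 32 with ATRA, at 29, 32 and 30 with palbociclib and at 25, 28 and 26 with the combination. All 9 treated libraries were below the untreated ones, ATRA and palbociclib covered the same range of 29 to 32, and the combination lay below both. The means were 45 ± 1.73, 31 ± 1.73, 30.3 ± 1.53 and 26.3 ± 1.53 RPKM (SD, n = 3 each). A small overlap of 365 exonic bases (2.1%) with NADK2 on the opposite strand, at 7 to 13 RPKM, was present.

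FBXW7 (ENSG00000109670, protein coding, chr4 152320544 to 152536092, minus strand), whose product takes cyclin E itself, was at 3 RPKM in all 12 libraries. A difference under the rounding step was not detectable, and the gene did not pass the filter. FBXO5 (ENSG00000112029, protein coding, chr6 152970519 to 152983579, minus strand) was read at 18, 18 and 17 RPKM untreated, at 14, 15 and 12 with ATRA, at 11, 11 and 9 with palbociclib and at 13, 13 and 10 with the combination. Its untreated libraries lay above all others. FBXO5 was also the only gene of the 5 with lower treated means whose combination mean (12 ± 1.73, n = 3) was above its palbociclib mean (10.3 ± 1.15, n = 3), although these groups overlapped.

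**Figure D1:**
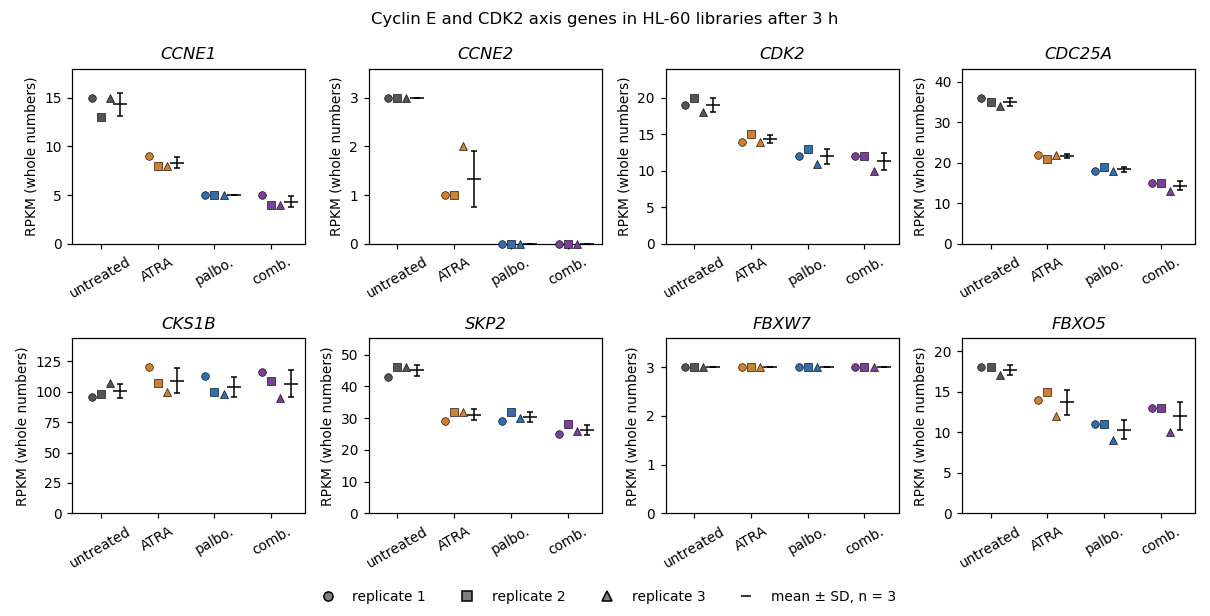
RPKM (whole numbers, vertical axes from 0) of each of the 8 genes by treatment group, with 1 symbol per replicate and the mean ± SD of 3 libraries at the right of each group. CCNE1, CDK2, CDC25A, SKP2 and FBXO5 have all untreated libraries above all treated ones, CCNE2 is listed at 0 wherever palbociclib was given, FBXW7 is at 3 throughout, and CKS1B overlaps between groups. The share of all genes with such a separation was not determined.

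Levels per gene length were lowest in CCNE2 and FBXW7 in untreated cells (3 RPKM each). Above them, in order, came CCNE1 (14.3 RPKM), FBXO5 (17.7), CDK2 (19), CDC25A (35), SKP2 (45) and CKS1B (100.3). FBXO5, read at 17 to 18 RPKM, and CDK2, at 18 to 20, touched at 18, and the other neighbours from CCNE1 upward did not overlap. With the combination the order became CCNE2, FBXW7, CCNE1, CDK2, FBXO5, CDC25A, SKP2 and CKS1B, where CDK2 (10 to 12 RPKM) and FBXO5 (10 to 13) overlapped and CDC25A met FBXO5 at 13.

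The first question was what ATRA alone did to the axis at 3 h. With ATRA, CCNE1, CDC25A and SKP2 fell, and the other genes of the axis did not pass the test. The log2 fold change of RPKM + 0.1 was -0.77 for CCNE1 (SE 0.0986, adjusted p = 0.00032), -0.69 for CDC25A (SE 0.0633, adjusted p = 3.37e-05) and -0.54 for SKP2 (SE 0.0650, adjusted p = 0.000225), from limma over the 7820 genes with at least 5 RPKM in at least 3 libraries, called at an adjusted p under 0.001. Of the 8 genes 6 passed this filter, 3 were called lower and 0 higher, where 1.94% of all genes tested were called lower. CDK2 had a log2 fold change of -0.40 (SE 0.0869, adjusted p = 0.00767), FBXO5 of -0.37 (SE 0.122, adjusted p = 0.0528) and CKS1B of 0.12 (SE 0.0934, adjusted p = 0.432). The median log2 fold change of the 6 genes was -0.47, beside -0.012 over all genes tested. In bulk RNA, fewer cells in a given phase and less RNA per cell cannot be told apart.

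With each library left out in turn, CDC25A stayed called, but only 1 of the 6 genes was called without untreated replicate 3, ATRA replicate 2 or ATRA replicate 3. Over all genes tested, 53, 46 and 56 were called lower in these fits, in that order. CCNE1 also missed the threshold without untreated replicate 1 and SKP2 without untreated replicate 2. When the untreated and ATRA libraries were fitted alone, 1 of the 6 was called, where 24 of 7820 genes were called lower.

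Palbociclib alone was compared with untreated cells next, and CCNE1, CDC25A and SKP2 were called lower. CCNE1 fell by 1.50 on the log2 scale (SE 0.0986, adjusted p = 7.36e-05), the second most negative of 7820 genes, CDC25A fell by 0.93 (SE 0.0633, adjusted p = 7.36e-05) and SKP2 fell by 0.57 (SE 0.0650, adjusted p = 0.00078). These were 3 of the 6 genes tested, with 0 higher, where 0.486% of all genes were called lower. CDK2 had a log2 fold change of -0.66 (SE 0.0869, adjusted p = 0.00211) and FBXO5 of -0.77 (SE 0.122, adjusted p = 0.00583), both short of the threshold of 0.001, and CKS1B was at 0.046 (SE 0.0934, adjusted p = 0.850). The median of the 6 was -0.72, and that of all genes tested was 0. In rank from the most negative log2 fold change, CDC25A was at 30, FBXO5 at 50, CDK2 at 84, SKP2 at 115 and CKS1B at 4693.

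Because the values are whole numbers, each value of CCNE1 may stand for a range around it, and within these limits its palbociclib log2 fold change lies between -1.72 and -1.33. The calls of this comparison rested on single libraries: without untreated replicate 1 no gene of the axis was called, with adjusted p = 0.00118 for both CCNE1 and CDC25A in limma, and SKP2 missed the threshold whichever of the 12 libraries was left out (adjusted p = 0.00101 to 0.00765). Without untreated replicate 1, none of the 7775 genes tested was called either. Fitting the untreated and palbociclib libraries alone also gave 0 calls in the axis, where 3 of 7820 genes were called higher and 1 lower.

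With the combination, 4 of the 6 genes tested fell against untreated cells. CDC25A fell by 1.28 on the log2 scale (SE 0.0633, adjusted p = 3.05e-07), CCNE1 fell by 1.71 (SE 0.0986, adjusted p = 1e-06), SKP2 fell by 0.77 (SE 0.0650, adjusted p = 1.28e-05) and CDK2 fell by 0.74 (SE 0.0869, adjusted p = 0.000114). None rose, and 4.28% of all genes tested were called lower. FBXO5 had a log2 fold change of -0.56 (SE 0.122, adjusted p = 0.00537) and CKS1B of 0.085 (SE 0.0934, adjusted p = 0.540), and the median of the 6 was -0.76 beside -0.0074 over all genes. The 4 calls were kept with any 1 of the 12 libraries left out, where 153 to 321 of all genes tested were called lower. Fitting the 6 untreated and combination libraries alone left 1 call, where 22 of 7820 genes were called lower. The 3 comparisons against untreated cells share their control libraries.

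**Figure D2:**
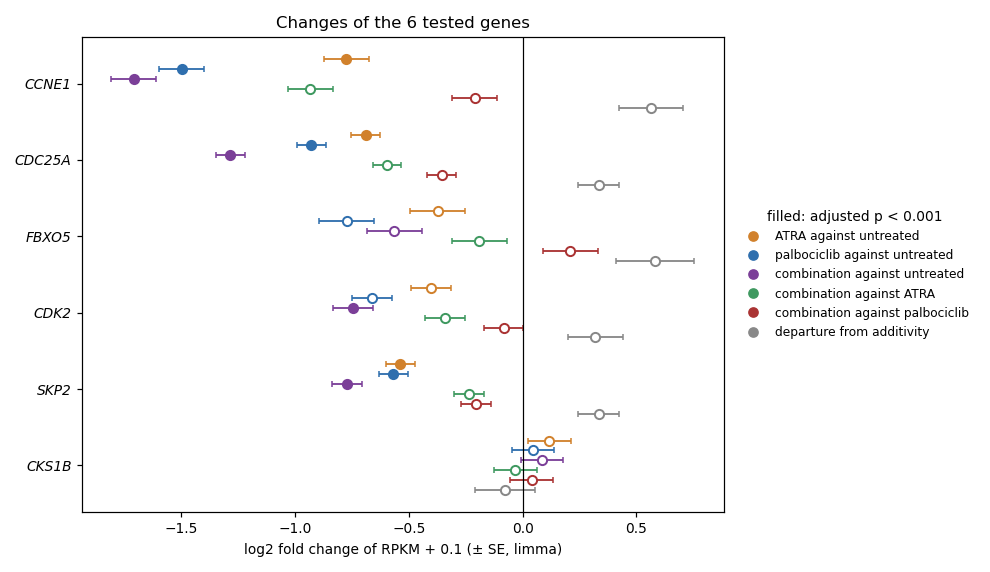
Log2 fold change of RPKM + 0.1 (horizontal axis, with SE bars from limma over 12 libraries) of the 6 genes tested in 5 comparisons and in the departure from additivity, filled where the adjusted p is under 0.001. CCNE1, CDC25A and SKP2 are filled in all 3 comparisons against untreated cells, CDK2 in the combination, and CKS1B lies within 0.12 of 0 throughout.

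Adding palbociclib to ATRA was read from the combination against ATRA. No gene of the axis was called at 0.001, where 0.000% of all genes were called lower, and 4 of the 6 had an unadjusted p under 0.05 in limma, all lower, where 3.11% of all genes were lower at that level. At an adjusted p under 0.05, CCNE1 (log2 fold change -0.93, SE 0.0986, adjusted p = 0.00679) and CDC25A (-0.60, SE 0.0633, adjusted p = 0.00679) were lower, 2 of the 9 genes (0.115%) that were lower at this threshold among 7820. The measured means were 8.33 and 4.33 RPKM for CCNE1 and 21.7 and 14.3 RPKM for CDC25A. CDK2 had -0.34 (adjusted p = 0.331), SKP2 -0.23 (adjusted p = 0.434), FBXO5 -0.19 (adjusted p = 1) and CKS1B -0.032 (adjusted p = 1). No label gives a pairing, but same-numbered libraries of the treated groups deviated together. In limma with that number as a block, CCNE1 (adjusted p = 0.00299), CDC25A (0.00403), CDK2 (0.0324) and SKP2 (0.0324) were under 0.05, with 0.639% of all genes lower at that threshold. For CCNE2 the values were 1, 1 and 2 RPKM with ATRA and 0 in each combination library (exact two-sided permutation p = 0.1, the smallest possible).

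Adding ATRA to palbociclib was read from the combination against palbociclib, and again no gene of the axis passed 0.001, where 0.997% of all genes were called lower. At an adjusted p under 0.05 CDC25A was lower (log2 fold change -0.36, SE 0.0633, adjusted p = 0.0036), from 18.3 to 14.3 RPKM, with 6.64% of all genes lower at that threshold. SKP2 had -0.20 (SE 0.0650, adjusted p = 0.0697), CCNE1 -0.21 (SE 0.0986, adjusted p = 0.231), CDK2 -0.084 (adjusted p = 0.671), CKS1B 0.039 (adjusted p = 0.874) and FBXO5 0.21 (SE 0.122, adjusted p = 0.360). With the replicate number as a block, CDC25A (adjusted p = 0.00186) and SKP2 (0.00363) were lower and FBXO5 (0.0384) was higher at 0.05, where 13.4% of all genes were lower and 10.1% higher, so these counts are to be read against a broad background. The CCNE1 values of 5, 5 and 5 RPKM against 5, 4 and 4 allow a log2 fold change from -0.52 to 0.10 within the rounding alone.

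The departure from additivity asks if the combination differs from the sum of both single log2 fold changes. For 5 of the 6 genes the combination lowered the level less than that sum: CCNE1 was at -1.71 where the sum was -2.27, CDC25A at -1.28 where it was -1.62, SKP2 at -0.77 where it was -1.10, CDK2 at -0.74 where it was -1.06, and FBXO5 at -0.56 where it was -1.15. In RPKM the sums would have placed CCNE1 at 2.88 and FBXO5 at 7.92, and the measured means were 4.33 and 12. The departures were 0.56 for CCNE1 (SE 0.139, unadjusted p = 0.00205 in limma), 0.58 for FBXO5 (SE 0.172, unadjusted p = 0.00627), 0.33 for CDC25A (SE 0.0896, unadjusted p = 0.00354), 0.33 for SKP2 (SE 0.0919, unadjusted p = 0.00419) and 0.32 for CDK2 (SE 0.123, unadjusted p = 0.025), while CKS1B was at -0.078 (SE 0.132, unadjusted p = 0.568). None passed the correction over all genes in limma (adjusted p = 1 for each of the 6), and 0.000% of all genes did at 0.05. At an unadjusted p under 0.05 there were 5 of the 6 genes, all positive, beside 154 positive (1.97%) and 82 negative among the 7820. These 5 genes followed each other over the same libraries, so they are not 5 separate observations. At the 2.88 RPKM that the sum gives for CCNE1, the rounding step of 1 RPKM is a large part of the value.

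The genes changed to unequal degrees, which moved their ratios within a library. CCNE1 over CDK2, the cyclin over its kinase in RPKM, was 0.758 ± 0.0957 untreated (range 0.65 to 0.833), 0.583 ± 0.0556 with ATRA (0.533 to 0.643), 0.419 ± 0.0350 with palbociclib (0.385 to 0.455) and 0.383 ± 0.0441 with the combination (0.333 to 0.417; SD, n = 3 each). The untreated, ATRA and palbociclib ranges did not overlap, and palbociclib and the combination did. CDC25A over CDK2 was 1.84 ± 0.0819 untreated, 1.51 ± 0.0990 with ATRA, 1.53 ± 0.0919 with palbociclib and 1.27 ± 0.0289 with the combination, with the single agents overlapping and the combination below both. SKP2 over CKS1B, the F-box gene over its cofactor, was 0.449 ± 0.0198 untreated and 0.287 ± 0.0406, 0.294 ± 0.0333 and 0.249 ± 0.0299 in the same order of treatments, and the 3 treated groups overlapped. These ratios are a description without a test, and they show unequal change and not which of both genes moved.

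**Figure D3:**
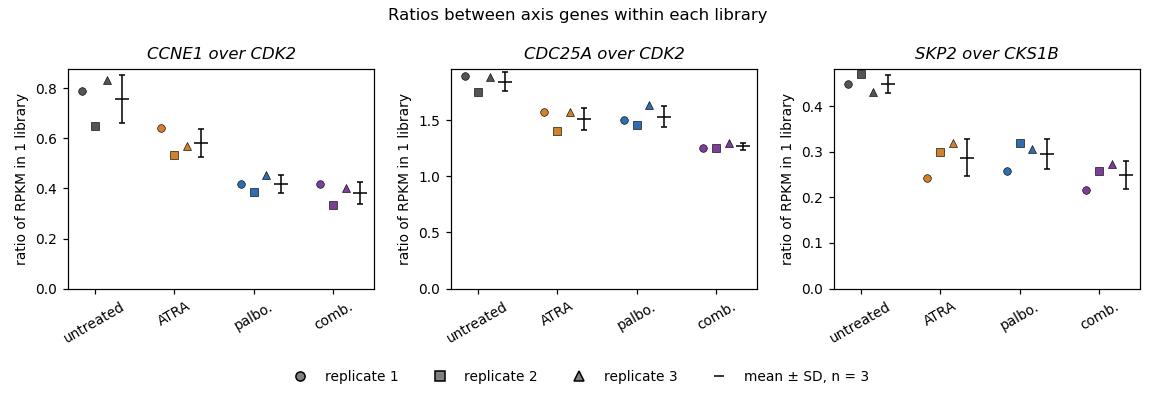
Ratio of RPKM within 1 library (vertical axes from 0) for CCNE1 over CDK2, CDC25A over CDK2 and SKP2 over CKS1B by treatment group, with 1 symbol per replicate and the mean ± SD of 3 libraries. The CCNE1 over CDK2 ratio is 0.758 untreated and 0.419 with palbociclib, the combination has the lowest CDC25A over CDK2 ratio (1.27), and SKP2 over CKS1B is lower in all treated libraries than in all untreated ones.

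Over the 12 libraries, which share treatments and library sums, the log2 levels of CCNE1, CDK2, CDC25A, SKP2 and FBXO5 followed each other, with Pearson's r from 0.747 (SKP2 with FBXO5) to 0.967 (CCNE1 with CDC25A). CKS1B had r from -0.377 to 0.0898 with these 5 genes. Among the other genes tested, those most like CCNE1 were MSH6, a mismatch repair gene (r = 0.991, 17.3 RPKM untreated and 6.33 with palbociclib), EZH2, the methyltransferase of polycomb repressive complex 2 (r = 0.990), and MCM7, a subunit of the replicative helicase (r = 0.978). CDK2 was closest to USP1, a deubiquitinase of DNA repair (r = 0.989), and also followed DSCC1, which acts in loading the sliding clamp (r = 0.984). CDC25A and SKP2 had the same closest gene, ICMT, a methyltransferase for prenylated proteins (r = 0.982 and 0.980). CDC25A was next closest to ZNF367 (r = 0.978) and TONSL (r = 0.975), and SKP2 to CBX2 and SKA3 (r = 0.971 each).

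FBXO5 was closest to the kinetochore genes ZWINT (r = 0.970) and CENPU (r = 0.967) and to the chromatin gene DEK (r = 0.962). In all 3 the palbociclib mean was the lowest of the groups, as in FBXO5: CENPU, for example, was at 31.3 RPKM untreated, 27 with ATRA, 19.3 with palbociclib and 21.3 with the combination. They were picked for likeness to FBXO5 over the same libraries, so a shared order of groups follows from the choice. CKS1B was closest to RPL7P26 (r = 0.990), a copy of a ribosomal protein gene, to AL161787.1 (r = 0.972) and to MZT2A, a mitotic spindle organizing gene (r = 0.955). All these r values are descriptions over 12 libraries of 4 groups, in which treatment alone can make genes alike.

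Of 37 further genes around cyclin E and CDK2, all were found and 32 passed the filter. With ATRA, 1 of the 32 fell, CUL1, the scaffold of the SCF ligase, and 0 rose. CUL1 was read at 46, 46 and 47 RPKM untreated, 37, 34 and 35 with ATRA, 41, 42 and 42 with palbociclib and 35, 32 and 33 with the combination, so the lower values were those of the groups with ATRA. Its log2 fold change was -0.39 with ATRA (SE 0.0506, adjusted p = 0.000355) and -0.47 with the combination (SE 0.0506, adjusted p = 6.45e-05), and -0.15 with palbociclib (adjusted p = 0.131). Against palbociclib, CUL1 in the combination was at -0.32 (adjusted p = 0.00167, and 0.000701 with the replicate block, where it passed and 2.57% of all genes were called lower). The ATRA call was lost without any untreated library and without ATRA replicate 2 or 3 (adjusted p = 0.000295 to 0.00276 over all libraries left out).

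With palbociclib, 2 of the 32 fell and 0 rose. E2F1, the activating transcription factor downstream of the retinoblastoma protein, was read at 14, 12 and 12 RPKM untreated, 9, 8 and 8 with ATRA, 5, 5 and 4 with palbociclib and 4, 4 and 3 with the combination. Its log2 fold change was -1.42 with palbociclib (SE 0.130, adjusted p = 0.000287), -1.77 with the combination (SE 0.130, adjusted p = 5.45e-06) and -0.60 with ATRA (adjusted p = 0.00837). E2F1 passed the filter through the untreated and ATRA groups, where it is high. With the palbociclib and combination libraries alone it would not have passed, so its calls, also within the counts of the 32, add no support beyond the listed values. It was also the 1 further gene lower at 0.05 in the combination against ATRA (-1.17, adjusted p = 0.00695). With the replicate block 4 of the 32 were lower there at 0.05, E2F1 (adjusted p = 0.00299), WEE1 (0.0340), CCNA2 (0.0400) and CHEK1 (0.0431), beside 0.639% of all genes. WEE1, the kinase that opposes CDC25A, was at 8 RPKM in each untreated library and at 5 in each of the 6 libraries with palbociclib, a log2 fold change of -0.67 both alone (SE 0.0714, adjusted p = 0.000535) and in the combination (adjusted p = 6.66e-05). The untreated and palbociclib libraries of WEE1 are identical within each group after rounding, so their spread is not seen. The palbociclib call of WEE1 was lost in 11 of 12 fits with 1 library left out and that of E2F1 without any 1 of the untreated or palbociclib libraries.

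With the combination, 4 of the 32 fell and 0 rose: E2F1, WEE1, CUL1 and CHEK1, a checkpoint kinase that marks CDC25A for degradation. The call of E2F1 carries the filter limit given above. CHEK1 was read at 13, 13 and 11 RPKM untreated and at 8, 8 and 7 with the combination (log2 fold change -0.68, SE 0.0925, adjusted p = 0.000325), and the call was lost without untreated replicate 1 or 2 or combination replicate 2 or 3 (adjusted p = 0.000431 to 0.00239 over the libraries left out). The other 28 did not pass. Among them were CDC6, the replication licensing factor (28 RPKM untreated, 14.3 with palbociclib, adjusted p = 0.00327, and 19.7 with the combination), RBL1, the pocket protein p107 (11.3 and 5.67 with palbociclib, adjusted p = 0.00948), and CCNA2, the S phase cyclin (78.3 and 59, adjusted p = 0.00583). CDC25C, the mitotic relative of CDC25A, was at 3 RPKM in each untreated library, 5, 6 and 5 with ATRA, 4, 4 and 3 with palbociclib and 5, 7 and 5 with the combination. It passed the filter only through the groups with ATRA, where it is high, so its values are given without a test.

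Of the 3 CDK inhibitor genes only CDKN1B passed the filter. It was read at 11.3 ± 1.15 RPKM untreated and 13.7 ± 1.53 with ATRA (SD, n = 3, adjusted p = 0.0957), and it was at 11.3 ± 0.577 with palbociclib. CDKN1A, under the filter, was at 1 RPKM in all untreated and all palbociclib libraries, and at 3, 5 and 4 both with ATRA and with the combination. With the filter at 1 RPKM it was called higher in limma with ATRA (adjusted p = 0.000325), with the combination (0.000248) and in the combination against palbociclib (0.000427), where its values at 1 RPKM have no spread after rounding. CDKN1C, BTRC, USP28 and E2F2 did not pass the filter either. The median log2 fold change of the 32 genes was -0.060 with ATRA, -0.0091 with palbociclib and -0.081 with the combination, against -0.47, -0.72 and -0.76 for the 6 genes of the axis tested. In the combination against ATRA and against palbociclib 0 of the 32 were called at 0.001. At an unadjusted p under 0.05 in limma, 7 were lower against ATRA, beside 3.11% of all genes. Against palbociclib 3 were higher and 2 lower beside 10.3% and 13.5% of all genes. With the replicate block 5 were higher and 3 lower against palbociclib at an adjusted p under 0.05, beside 10.1% and 13.4%. Counts of higher genes among the 32 can hold CDC25C, which passed the filter only through the groups with ATRA.

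**Figure D4:**
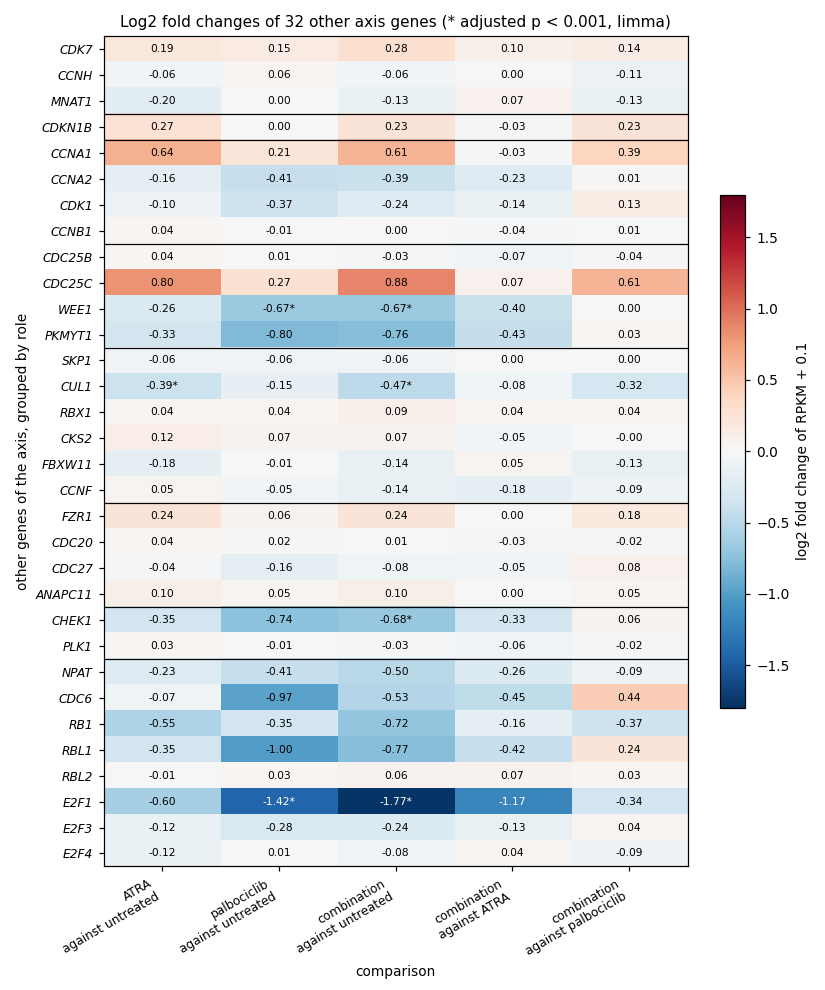
Log2 fold change of RPKM + 0.1 (colour, and number in each cell) of the 32 further genes tested, in rows grouped by role, for 5 comparisons in columns, with a star where the adjusted p from limma is under 0.001. Stars stand at CUL1 with ATRA, at E2F1 and WEE1 with palbociclib, and at these 3 and CHEK1 with the combination. E2F1 passed the filter through the untreated and ATRA groups, where it is high. The rows of the kinase-activating complex, the anaphase-promoting complex and the SCF parts other than CUL1 lie within 0.283 of 0.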

How the data were processed

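The authors sequenced poly(A) TruSeq libraries, mapped reads to hg38 with HISAT2 and counted them by gene using default settings of htseq-count. The deposited values are RPKM that the authors rounded to whole numbers, handled here as a score, so no count test was run. Whether the libraries kept the strand is not given in the sources used here. Log2(RPKM + 0.1) of the 12 libraries was fitted in limma 3.58.1 (R 4.3.3) with 1 mean per group and a variance trend, for 7820 genes with at least 5 RPKM in at least 3 libraries, and p-values were adjusted by Benjamini-Hochberg within a comparison and called under 0.001. The members, lists, filter and tests were chosen with earlier results of these data known. No label says that replicates came from separate cultures, so p-values measure the spread between these libraries, which may be technical. Replicates had equal values in 17.9% to 36.5% of the genes tested, and none was a copy of another. Same-numbered libraries deviated together between treated groups (r from 0.438 to 0.908 over genes), but not in every pair with untreated libraries (r from 0.0453 to 0.367). Blocked values therefore stand beside comparisons of treated groups. Named were the 8 genes, further axis genes that were called, moved with the block or served as examples, and the 3 genes most like each gene tested, of which 1 is not reported here. Positions are from GENCODE v44. The script was tested on simulated data. Plots were drawn with Python 3.11.15 and matplotlib 3.10.9.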

Additional observations from a re-analysis of the deposited data

How the results depend on the processing

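The whole-number RPKM values and 3 libraries per group limit what could be called, and depth per library is not known from them. Of 786 log2 results of the 6 genes tested under other settings, 740 kept direction and side of the threshold, 34 were no longer called, 4 were newly called and 8 changed sign. With only the groups compared in the fit, the genes called were 1, 0 and 1 for ATRA, palbociclib and the combination against untreated, where fewer libraries estimate the spread, and 0, 0 and 1 of the 32 further genes. Over the 7820 genes tested, 54 were higher and 24 lower, 3 and 1, and 49 and 22 in these fits. The departure from additivity could not be fitted that way. At an adjusted p under 0.05 in limma, 5 genes were lower with palbociclib, 2 between the combination and ATRA and 1 between the combination and palbociclib. Of the further genes, 1 was higher and 4 lower with ATRA, 0 and 9 with palbociclib, and 1 and 10 with the combination. Over the 7820 genes, 681 were higher and 909 lower, 71 and 247, and 996 and 1381. The 1 higher with ATRA was CDC25C. It passed the filter only through the groups with ATRA, where it is high, so it adds no support beyond its values. In the combination, 1 further gene passed against ATRA and 2 against palbociclib, beside 0 higher and 9 lower, and 458 and 519, of the 7820 genes.

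Blocking on the replicate number, the genes called were 5 with palbociclib (CDK2 and FBXO5 added), 4 with ATRA (CDK2 added) and 5 with the combination (FBXO5 added, adjusted p = 0.000146), and 3, 5 and 7 of the further genes were called in ATRA, palbociclib and the combination, and 1, CUL1, in the combination against palbociclib. Of the 7, 6 were lower and 1 higher. The block changed no other count of members by over 1.5 times. Over all genes tested it gave 376 higher and 346 lower with ATRA, 5 and 78 with palbociclib and 514 and 690 with the combination, where 217 and 152, 1 and 38, and 294 and 335 were called without it. Deviations of same-numbered untreated and treated libraries were positively correlated, but not above 0.1 in every pair, so these blocked counts are not given beside the comparisons against untreated cells.

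Leaving out each library in turn gave 1 to 3 genes called with ATRA and 0 to 2 with palbociclib, and 0 to 1 and 0 to 2 of the further genes. Over all genes tested, 125 to 211 were higher and 46 to 135 lower with ATRA, and 0 to 1 and 0 to 29 with palbociclib. Median centring left 0, 1 and 2 further genes called in the comparisons against untreated and moved the share of lower calls. It gave 252 higher and 92 lower genes with ATRA, 0 and 13 with palbociclib and 346 and 172 with the combination. The filter at 1 RPKM and no filter each called 2 further genes with ATRA and 2 in the combination against palbociclib, CUL1 and CDKN1A, and 1 of the 8 genes, CCNE2, in the combination against ATRA. CCNE2 exceeded 0 only in the untreated and ATRA groups. At 1 RPKM, 273 of 14003 genes were higher and 243 lower with ATRA, and 220 and 139 against palbociclib. Quantile normalization gave 1 further gene in the combination against palbociclib, beside 160 higher and 90 lower of 7820 genes. The filter at 1 RPKM also called 29 higher and 86 lower genes with palbociclib, 11 and 9 in the combination against ATRA and 54 and 31 for the departure, which held none of the 8 genes. Sign changes were seen in CKS1B, from -0.0177 to 0.093 with palbociclib, -0.095 to 0.049 in the combination against ATRA (0.00615 with median centring), -0.0239 to 0.120 against palbociclib and -0.141 to 0.0031 for the departure, and in CDK2 from -0.144 to 0.0033 in the combination against palbociclib, with libraries left out. Except where stated, the cause was not tested.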

Other observations

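E2F2, under the filter, was listed at 2 RPKM in each untreated and each ATRA library, at 1 in each palbociclib library and at 1, 2 and 1 with the combination. RB1, the retinoblastoma gene, was read at 21, 25 and 21 RPKM untreated, 12, 18 and 16 with ATRA, 14, 20 and 19 with palbociclib and 11, 16 and 14 with the combination, with replicate 2 the highest in each group. In the combination against untreated its log2 fold change was -0.72 (adjusted p = 0.0140 in limma). CCNA1, the testis-type cyclin A that myeloid leukaemia lines also express, was read at 7, 7 and 9 RPKM untreated and at 9, 11 and 17 with ATRA, and it was at 7, 9 and 11 with palbociclib (adjusted p = 0.117 and 0.754). Its replicate 3 was the highest in each group.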
